A study of Apis mellifera with 12 samples.

Results

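The probes described here are those for ame-miR-279, ame-miR-279c and ame-miR-996 of the honey bee (Apis mellifera), 3 of 168 miRNA probes on each of 12 microarrays, chosen by name as a family and written below without the species prefix. The 6 dsVg pools came from workers that as newly emerged adults received an injection of double-stranded RNA (dsRNA) directed at vitellogenin, 2 µL at 10 µg/µL, and the 6 dsGFP pools from sham controls given as much dsRNA directed at green fluorescent protein, for which bees have no gene. All workers were labelled 15 days old, and each pool held 1 µg of small RNA, with 200 ng from the brain of each of 5 bees. The source names call both groups forager brains. The arrays carried miRNA probes and none for vitellogenin mRNA, and how far the knockdown went was not analysed here. The study asked whether lowering vitellogenin, the yolk precursor that in workers is linked to hormone signalling and behavioural maturation, altered the miRNAs of the brain.

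A miRNA pairs with its target mRNAs mainly through its seed, bases 2 to 8, so miRNAs with the same seed can share targets. In Drosophila, miR-279 keeps carbon dioxide sensing neurons from forming in the maxillary palps and, through the JAK/STAT ligand Unpaired, acts in the brain on the daily rhythm of rest and activity. miR-996 is its neighbour in the fly genome and can stand in for it during the development of sense organs.

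The sequences are shown because the arrays read the family members through probes to closely related targets. Each is the mature sequence that the scanner files give as the probe's target, with the seed in capitals, and the probe for miR-279b, found on the array by its seed, is included.
miR-279: uGACUAGAuccacacucauuaa
miR-279c: uGACUAGAgucacacucgucca
miR-996: uGACUAGAuacauacucgucu
miR-279b: uGACUAGAucgaaauacucguccc

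Only these 4 of the 168 probes held this seed. Counted from the 5′ end, miR-279 and miR-279c were identical at 17 of 22 positions and first differed at position 9. miR-279 and miR-996 were identical at 16 of 21 positions and first differed at position 10, and miR-279c and miR-996 were identical at 17 of 21. miR-279b was farther from miR-279, at 13 of 22 identical positions. GC content was 50% in miR-279c, 45.8% in miR-279b, 38.1% in miR-996 and 36.4% in miR-279, and the 84 miRNAs tested had a median of 47.8%. In the RefSeq annotation of assembly Amel_HAv3.1, where all 4 names matched a gene, ame-miR-279 is listed as Mir279a and its next gene is Mir996, while Mir279c and Mir279b lie elsewhere.

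The arrays differed in their background before any family member was considered. Detection on an array required a mean over the 18 spots above the level that 95% of its empty spots did not exceed, and miRNAs detected on 6 or more of the 12 arrays entered the tests. Between 34 and 168 miRNAs were detected per array, with over 80 on 6 arrays (dsVg pools 1, 2 and 3, dsGFP pools 1, 3 and 4) and at most 60 on the other 6. dsVg pools 5 and 1 stood apart from the rest: their normalized signals over the 84 tested miRNAs correlated with those of the other pools at a mean r of 0.895 and 0.917, against 0.929 to 0.965 for the other 10 pools. All intensities of dsVg pool 5 were whole numbers (100% of spots, at most 1.11% elsewhere). The group differences, pair differences, correlations and most similar miRNAs of the family are therefore also given without dsVg pools 1 and 5. Among the other 10 pools the lowest mean r, 0.929, was that of dsVg pool 3. The group differences of miR-279 and miR-279c and the pair differences are given without that pool too. The neuronal miRNA miR-124 was detected on all 12 arrays, as was the muscle miRNA miR-133, and the muscle miRNA miR-1 was detected on 11.

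The scanner intensities show which family members gave a signal. miR-279 was detected on 11 of 12 arrays, with 485 (lowest), 1291 (median) and 5340 (highest) intensity units in dsVg pools and 767, 1274 and 2824 in dsGFP pools. The dsVg pools thus hold both the dimmest and the brightest miR-279 signal of the series, and the exception in detection was dsVg pool 5, where miR-279 read 508 against a threshold of 620. On that array the median empty spot (477) was brighter than the median miRNA probe (352), and miR-279 ranked 39 of 168 probes. The median empty spot was also the brighter on dsVg pools 4 and 6 and dsGFP pool 2. miR-279c was also detected on 11 arrays, with 208, 356 and 769 in dsVg pools and 189, 297 and 512 in dsGFP pools. Its exception was dsGFP pool 5, at 312 against a threshold of 317. miR-996 was detected on 3 of 6 arrays in each group, with 105, 183 and 360 in dsVg pools and 83.4, 244 and 292 in dsGFP pools. The 6 arrays that detected it are those on which over 80 miRNAs exceeded the empty spots. Its values therefore lie near background throughout.

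**Figure D1:**
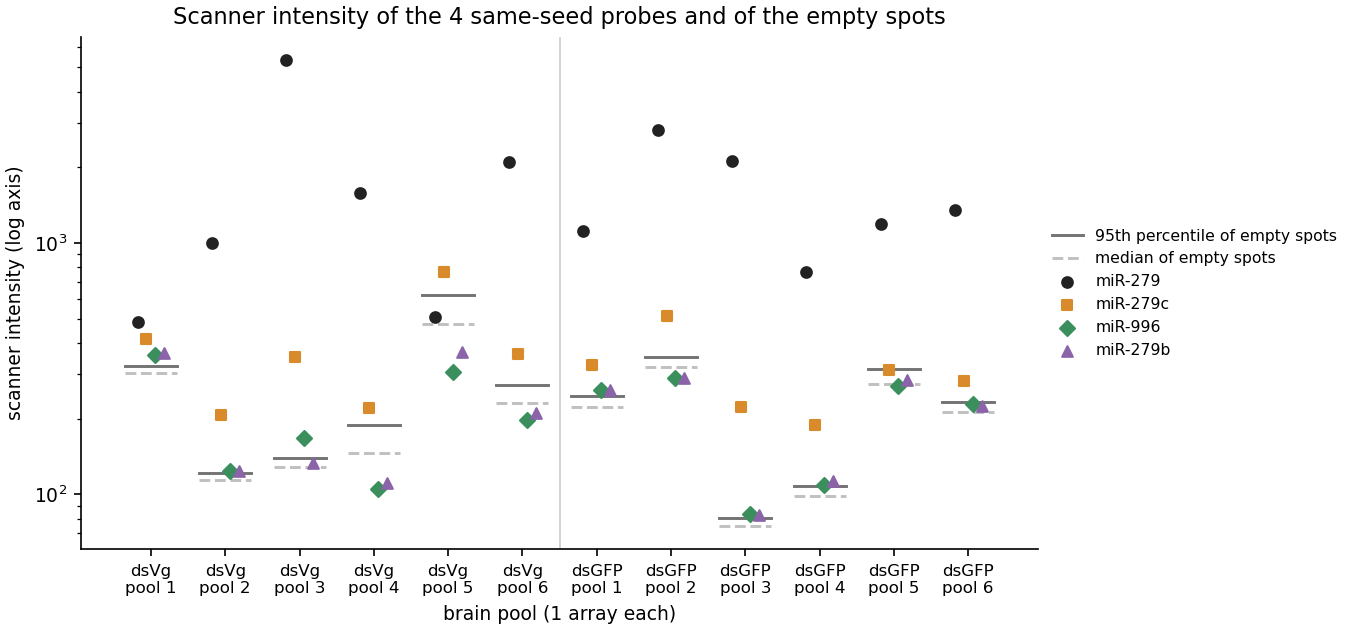
Mean scanner intensity (log axis) of the probes for miR-279, miR-279c, miR-996 and miR-279b on each of 12 arrays, dsVg pools left and dsGFP pools right, with the median and the 95th percentile of the empty spots of each array. miR-279 stood highest of the 4 on 11 arrays and read 508 in dsVg pool 5, where miR-279c read 769, while miR-996 and miR-279b stayed near the empty spots.

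Cross-hybridization between the related probes was examined on the arrays with the strongest miR-279 signal. In dsVg pool 3 the miR-279 spots lay 5210 units above the median empty spot, while the miR-279b spots lay 4.51 and the miR-996 spots 38.8 units above it. In dsGFP pool 2, with miR-279 at 2504 units above the median empty spot, miR-279b and miR-996 lay below it, at -29.8 and -28.5 units. The miR-279b spots thus remained near background where miR-279 was brightest. The miR-996 spots did so in dsGFP pool 2 but exceeded the detection threshold in dsVg pool 3 (168 against 139). The miR-996 excess was larger only in dsVg pool 1, at 55.3, where that of miR-279 was 181. Beside the median miRNA probe of the same array, miR-996 read 360 against 362 in dsVg pool 1 and 168 against 147 in dsVg pool 3. In dsGFP pool 2 it read 292 against 298. Its ranks on these arrays were 93, 73 and 99 of 168. The highest rank of miR-996, 64, was in dsGFP pool 6, at 228 against 223. For miR-279c the excess was 223 units in dsVg pool 3 and 192 in dsGFP pool 2, and its largest value, 292, was in dsVg pool 5, where that of miR-279 was smallest, at 31.2. Values in dsVg pool 5 are taken above bright empty spots, with miR-996 at -170 and miR-279b at -109 units there. Each probe has its own binding strength, which makes these numbers a measure of signal and not of abundance. A contribution of miR-279 to the miR-279c or miR-996 spots was not tested with a control, nor was one between any other related probes. Compared position by position, miR-279c and miR-996 differed least, at 4 of 21 positions. miR-279b differed from miR-279 at 9 of 22, so its low signal says little about the closer probes.

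For the comparison of groups, intensities were background-corrected, converted to log2 and quantile-normalized between arrays. miR-279 had a lower mean in the knockdown brains, with 8.40 (lowest), 10.14 (median) and 10.91 (highest) in dsVg pools and 9.95, 10.39 and 10.51 in dsGFP pools (log2 signal). dsVg pools 1, 2 and 5 lay below every dsGFP pool, pool 3 lay above every dsGFP pool, and the groups overlapped. The means were 9.94 ± 0.89 in dsVg and 10.33 ± 0.21 in dsGFP (SD, n = 6 each), a difference of -0.39 (SE 0.35, 95% interval -1.14 to 0.37). With limma the unadjusted p was 0.283 and the adjusted p 0.772, and the two-sided exact permutation p was 0.385. Without dsVg pool 5 the difference was -0.080 and without dsVg pools 1 and 5 it was 0.10.

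miR-279c had a higher mean in the knockdown brains, with 7.13, 7.78 and 9.48 (log2 signal, lowest, median and highest) in dsVg pools and 7.29, 7.67 and 7.88 in dsGFP pools. Here dsVg pools 5 and 1 (9.48 and 8.95) lay above every dsGFP pool, pool 3 lay below every one, and the groups again overlapped. The means were 8.14 ± 0.89 in dsVg and 7.62 ± 0.23 in dsGFP (SD, n = 6 each), a difference of 0.51 (SE 0.35, 95% interval -0.24 to 1.27). The unadjusted limma p was 0.165, the adjusted p 0.772 and the two-sided exact permutation p 0.266, and 5 of 6 dsVg pools lay above the dsGFP mean. Without dsVg pools 1 and 5 the difference was -0.030, and it was -0.037 when arrays were scaled to the 75th percentile of the 33 miRNAs detected everywhere, a scaling that moves the median difference of all 84 miRNAs to -0.31.

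miR-996, whose gene adjoins that of miR-279, gave 6.41, 6.57 and 6.74 (log2 signal, lowest, median and highest) in dsVg pools and 6.41, 6.60 and 6.81 in dsGFP pools. The groups covered nearly the same range. The means were 6.57 ± 0.12 and 6.59 ± 0.13 (SD, n = 6 each), a difference of -0.026 (SE 0.088, 95% interval -0.22 to 0.17, adjusted limma p = 0.895, two-sided exact permutation p = 0.762). Its sign changed with the processing, to 0.095 with plain background subtraction and 0.033 without normalization, and it was -0.0010 without dsVg pools 1 and 5. A narrow interval near background does not exclude a change in abundance.

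**Figure D2:**
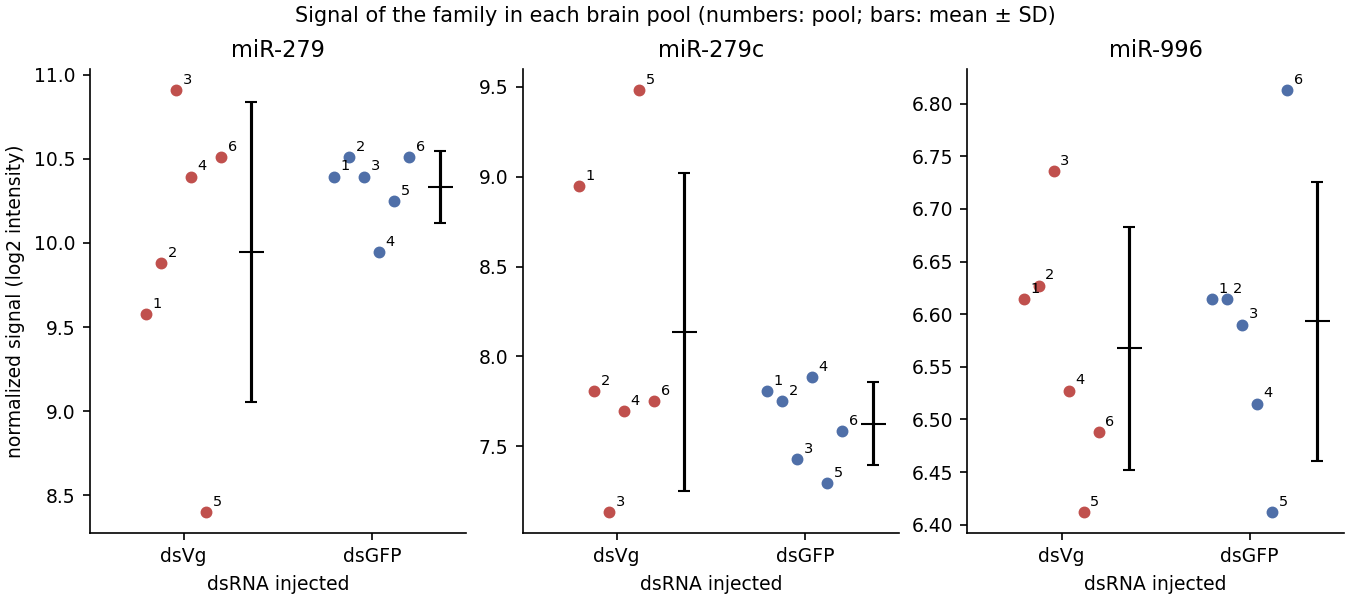
Quantile-normalized log2 signal of miR-279, miR-279c and miR-996 in each brain pool, dsVg left of dsGFP; numbers are pool numbers, and bars give the mean ± SD of 6 pools. For miR-279 and miR-279c the dsVg pools spread over a wider range than the dsGFP pools (SD 0.89 against 0.21 and 0.89 against 0.23), and for miR-996 the groups cover the same range; each panel has its own scale. A wider dsVg spread was not particular to the family, as with bantam (SD 0.74 against 0.095) and miR-7 (1.41 against 0.55). It was absent in let-7 (0.50 against 0.50) and miR-71 (0.51 against 0.60).

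None of the 3 family members passed the adjusted threshold of 0.05 with limma, and over all 84 tested miRNAs 0 did (0%), with 3 (3.57%) at an unadjusted p under 0.05. No family member was among those 3, and the dsVg and dsGFP pools overlapped for each of the 84 miRNAs (0% without overlap). In bulk brain RNA, fewer cells that make a miRNA and less of it per cell cannot be told apart. Within the arrays with over 80 and at most 80 detected miRNAs, 3 pools a group in each, the differences were -0.17 and -0.68 for miR-279, 0.23 and 0.79 for miR-279c, and 0.076 and -0.14 for miR-996. The authors' deposited table of processed intensities gave the same directions as the normalized scanner values. It held 172, 669.5 and 1156 (lowest, median and highest) for miR-279 in dsVg pools and 606, 802.5 and 1024 in dsGFP pools, 43, 79.5 and 387 for miR-279c in dsVg pools and 53, 71.5 and 91 in dsGFP pools, and 7, 19.5 and 33 for miR-996 in dsVg pools and 13, 22 and 28 in dsGFP pools. The differences computed from that table, on the scale of log2(value + 1), were -0.51 for miR-279, 0.54 for miR-279c and -0.16 for miR-996.

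**Figure D3:**
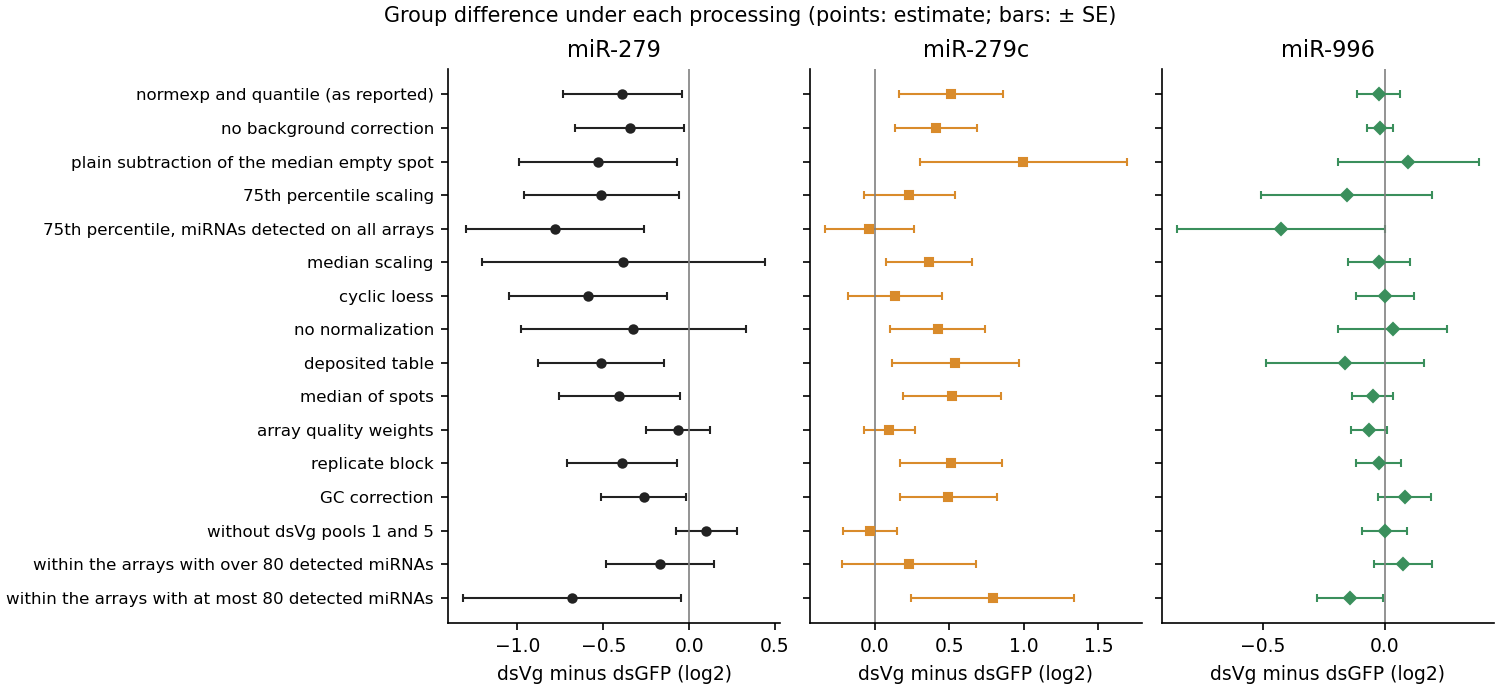
Difference of the group means, dsVg minus dsGFP, in log2 signal for miR-279, miR-279c and miR-996 under each processing listed at the left; points are estimates and bars ± SE from limma. The difference of miR-279 lies below 0 except without dsVg pools 1 and 5 (0.10), that of miR-279c lies above 0 except without those pools (-0.030) and under one 75th percentile scaling (-0.037), and that of miR-996 lies on both sides.

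Because miR-279 and miR-279c had means on opposite sides, their responses were compared within each array, where a log2 shift common to the whole array cancels. The log2 signal of miR-279c minus that of miR-279 was -3.77 (lowest), -2.38 (median) and 1.08 (highest) in dsVg pools and -2.97, -2.84 and -2.06 in dsGFP pools. The pools with the highest values were dsVg pool 5 (1.08) and dsVg pool 1 (-0.63), and 4 of 6 dsVg pools lay above the dsGFP mean. In dsVg pool 5 miR-279 was below the detection threshold, which bright empty spots set high there. The value there is therefore not a ratio of detected signals, although miR-279 ranked 39 of 168 on that array. Nor is that of dsGFP pool 5, where miR-279c was below the threshold. Both values are nevertheless part of the ranges, group means and tests given here. The group means differed by 0.90 (SE 0.73), with a two-sided exact permutation p of 0.281 (adjusted p = 0.359 over the 3 pairs of family members). Leaving out dsVg pool 5 brought this difference to 0.33. For miR-996 minus miR-279 the group difference was 0.36 (exact permutation p = 0.359, adjusted p = 0.359), and for miR-279c minus miR-996 it was 0.54 (exact permutation p = 0.264, adjusted p = 0.359). With miR-996 below the detection threshold on 6 of 12 arrays, these last values mostly carry the signal of the other member and say little of miR-996. An unequal response of miR-279 and miR-279c was not detectable with these pools. Within the arrays with over 80 and at most 80 detected miRNAs the miR-279c minus miR-279 difference was 0.40 and 1.47. The 3 pair differences, in the order above, were -0.13, -0.10 and -0.029 without dsVg pools 1 and 5. They were 1.28, 0.53 and 0.75 without dsVg pool 3 (adjusted exact permutation p = 0.0714, 0.136 and 0.0714).

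From pool to pool, miR-279 and miR-279c moved in opposite directions after quantile normalization. Over the 12 pools Pearson's r was -0.91 (permutation p = 0.00027, adjusted p = 0.00081 over 3 pairs) and Spearman's rho -0.71 (permutation p = 0.0112, adjusted p = 0.0337). Without dsVg pools 5 and 1, which are farthest from the median of miR-279, r was -0.59 (permutation p = 0.0729) among values normalized with all pools, so the relation rests on those pools. Within dsVg pools r was -0.95 (n = 6, exact permutation p = 0.00278, adjusted p = 0.00833) and rho -0.94 (exact permutation p = 0.0167), and within dsGFP pools r was -0.24 (n = 6, exact permutation p = 0.700) and rho -0.15 (exact permutation p = 0.778). Within the 6 arrays with over 80 detected miRNAs r was -0.91, and within the other 6 it was -0.94. The relation also depends on the scaling, since r was -0.012 without normalization and 0.34 after scaling to the median. It was -0.87 with 75th percentile scaling, and -0.56 with that scaling over the miRNAs detected on all arrays. With cyclic loess r was -0.83, without background correction -0.92, and in the deposited table -0.95.

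**Figure D4:**
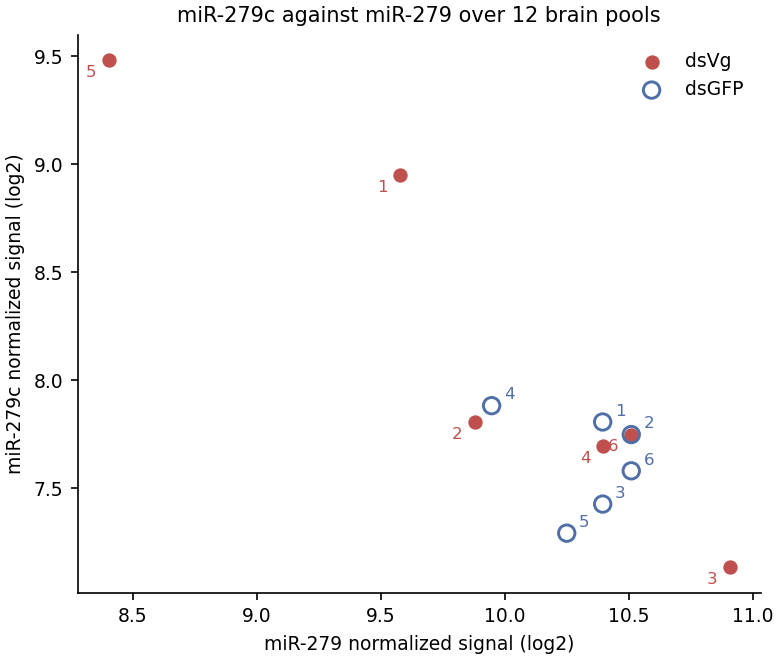
Quantile-normalized log2 signal of miR-279c against that of miR-279 in 12 brain pools (filled, dsVg; open, dsGFP; numbers are pool numbers). dsVg pools 5 and 1 lie at the upper left and dsVg pool 3 at the lower right, with the dsGFP pools between; dsVg pool 6 and dsGFP pool 2 coincide.

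The signals of miR-279 and miR-996, whose genes are neighbours, did not correlate past the threshold after quantile normalization. Over the 12 pools r was 0.51 (permutation p = 0.0942, adjusted p = 0.141) and rho 0.42 (permutation p = 0.173, adjusted p = 0.260), and r was 0.42 (permutation p = 0.221) without dsVg pools 5 and 1. Within dsVg pools r was 0.62 and within dsGFP pools 0.63 (n = 6 each, exact permutation p = 0.197 and 0.211), and within the arrays with over 80 and at most 80 detected miRNAs it was 0.55 in both. For miR-279c and miR-996 r was -0.35 (permutation p = 0.262, adjusted p = 0.262) and rho -0.22 (permutation p = 0.482), with r of -0.17 without dsVg pools 5 and 1. Within dsVg pools that r was -0.61 and within dsGFP pools 0.25 (n = 6 each, exact permutation p = 0.215 and 0.672), and within the arrays with over 80 and at most 80 detected miRNAs it was -0.40 and -0.38. Since miR-996 was below the detection threshold on 6 of these arrays, both relations concern a signal near background. Both also turned with the scaling: after GC correction the r of miR-279 and miR-996 was -0.64 (adjusted permutation p = 0.0159), and that of miR-279c and miR-996 was 0.74 (adjusted permutation p = 0.00793), against -0.76 with cyclic loess (adjusted permutation p = 0.0220). The GC correction shifts miR-996, with an SD of 0.12 in dsVg and 0.13 in dsGFP pools, by an amount set by each array's GC trend. The r after it therefore partly repeats those trends and cannot tell whether the miRNAs moved together.

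How far the signals of a pool followed GC content varied from pool to pool. In dsVg pool 5 the deviation of a miRNA from its mean over the 12 pools followed its GC content at r = 0.48 across the 84 tested miRNAs, which share that array. There miR-279 (36.4% GC) deviated by -1.74 and miR-279c (50% GC) by 1.60. The r was 0.32 in dsVg pool 1, with miR-279 at -0.56 and miR-279c at 1.07, and -0.36 in dsVg pool 3, with 0.77 and -0.75. In the other 9 pools it ran from -0.43, in dsGFP pool 2, to 0.20, so a trend with GC content was not limited to dsVg pools 1, 3 and 5. After a linear correction of each array for GC content, chosen after seeing the data, the difference between groups was -0.26 for miR-279, 0.49 for miR-279c and 0.081 for miR-996, and the r of miR-279 and miR-279c was -0.89. Beyond this linear correction, the part of GC content in the differences was not tested.

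**Figure D5:**
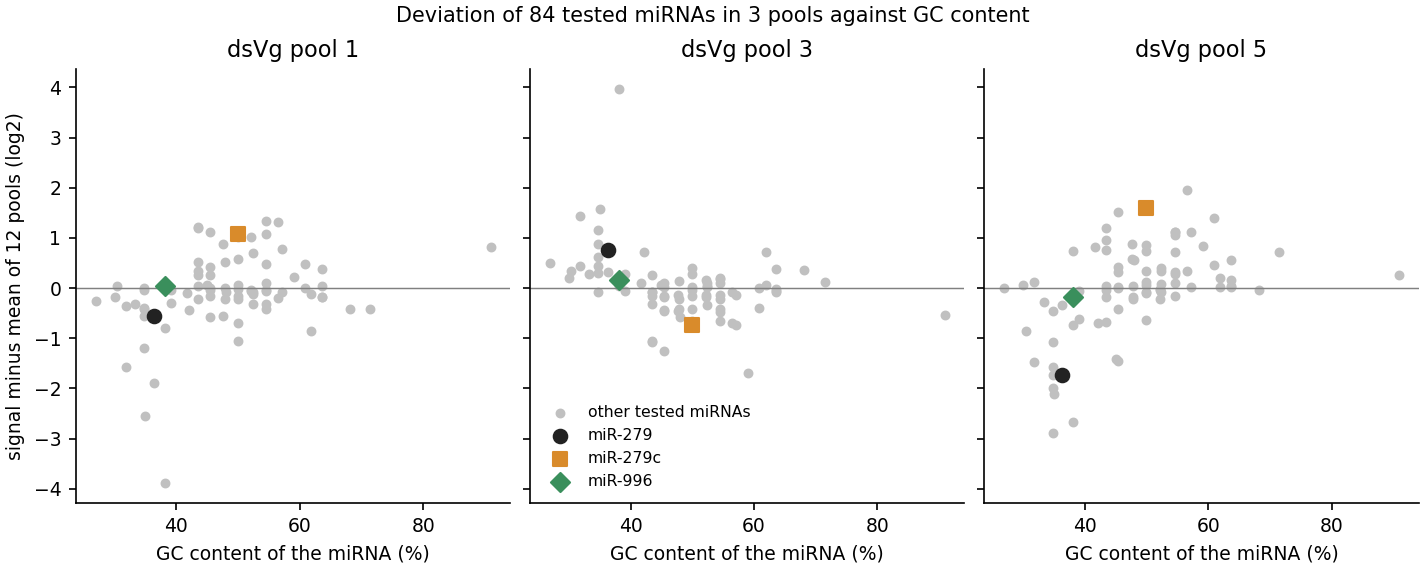
Log2 signal minus the mean of 12 pools for each of 84 tested miRNAs against its GC content in percent, in dsVg pools 1, 3 and 5, with miR-279, miR-279c and miR-996 marked. In pools 1 and 5 miR-279 (36.4% GC) lies below 0 and miR-279c (50% GC) above 0, and in pool 3 the order is turned round.

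The tested miRNAs whose pool-to-pool pattern was most like that of each family member were named by their r over the 12 pools, as a description. For miR-279 they were miR-927 (0.89), miR-13b (0.89) and miR-7 (0.87), each with 34.8% GC. For miR-279c they were miR-3049 (0.95), miR-971 (0.94) and the neuronal miR-124 (0.94), with 54.5%, 43.5% and 56.5% GC. Without dsVg pools 1 and 5 these r became 0.69, 0.51 and 0.28 for the companions of miR-279 and 0.62, 0.89 and 0.59 for those of miR-279c. For miR-996 they were miR-3793 (0.85), miR-993 (0.57) and miR-279 itself (0.51), at 0.87, 0.59 and 0.42 without those pools.

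Other miRNAs with roles in daily rhythms in flies were set beside the family, since miR-279 has such a role. All 8 listed (bantam, let-7, miR-124, miR-276, miR-92a, miR-210, miR-263 and miR-263b) were tested and 0 passed the adjusted threshold. Of these, 6 had a higher and 2 a lower mean in dsVg brains, with a median difference of 0.25, beside 45 higher and 39 lower and a median of 0.03 over all 84. Under scaling to the 75th percentile of the miRNAs detected on all arrays the list had 3 higher and 5 lower (median -0.11), while all 84 had 12 higher and 72 lower (median -0.31). bantam, which acts on the clock gene Clock, was at -0.18, with 9.08 in dsVg pool 5 against 10.65 to 10.91 in dsGFP pools. miR-276, which represses timeless, was at 0.13, and let-7, which acts on clockwork orange, at -0.13. miR-124 was at 0.85, with 11.99 and 11.34 in dsVg pools 5 and 1 against 9.08 to 10.00 in dsGFP pools, so that it was high in the same pools as miR-279c.

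Markers of tissues that could be dissected with the brain also varied between these pools. Of 2 muscle miRNAs, miR-1 had 6.63 to 8.83 in dsVg pools and 8.27 to 9.80 in dsGFP pools, and miR-133 had 8.40 to 9.88 in dsVg pools and 7.88 to 9.08 in dsGFP pools (log2 signal). The sum of the 2 log2 values, which is not the log2 of a total signal, was 15.34 to 18.06 in dsVg pools and 16.29 to 18.51 in dsGFP pools. Of 3 miRNAs of the eye and sensory organs, miR-7 was at 9.34 in dsVg pool 5, against 11.99 to 13.49 in dsGFP pools. In that same pool the others lay above every dsGFP pool, with miR-263 at 10.65 against 9.34 to 10.00 and miR-263b at 11.08 against 9.48 to 10.51. Over all 3 the sum of the log2 values was 31.07 to 33.40 in dsVg pools and 31.23 to 34.00 in dsGFP pools. The endocrine miRNA miR-375 had 6.66 to 7.07 in dsVg pools and 6.84 to 7.49 in dsGFP pools, and miR-275 of gut and fat body had 9.88 to 11.68 in dsVg pools and 9.74 to 10.51 in dsGFP pools. The part of these tissues in the signals of miR-279 and miR-279c was not tested.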

How the data were processed

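Per the labels' protocols, RNA shorter than 200 nucleotides was poly(A)-tailed, tagged and stained with Cy3 by a service provider, giving 1 colour and 1 array per pool. The deposited scanner files give spot intensity on a linear scale with background included, per the file headers as a mean (dsGFP pool 1: as a median). The deposited table of processed values also holds intensity, with a normalization not given in the sources used here. Scanner intensities were corrected with normexp (offset 50, limma 3.58.1, R 4.3.3), averaged as log2 over 18 spots, and quantile-normalized over 168 probes. Groups were compared with limma (lmFit, eBayes, two-sided, Benjamini-Hochberg over 84 miRNAs) and with an exact permutation test over 924 assignments (smallest p 0.00216). Correlations over 12 pools used 100000 permutations. Fits were tested on simulated data. For 30 pairs of pools of a group, a chi-square was taken over the 168 miRNA probes, with the spread over spots as error. Divided by its degrees of freedom it was at least 35.6, so no pool was counted as a copy. The named miRNAs are the family, the 3 most correlated with each member, and fixed lists; members and lists were chosen with earlier results of these data known. With 6 arrays a group, their number limits the precision.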

Additional observations from a re-analysis of the deposited data

How the results depend on the processing

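Settings covered background correction, normalization, the deposited table, spot summary, filters, array weights, the replicate block, left-out pools and GC content (the last, and the 75th percentile of the miRNAs detected on all arrays, chosen after seeing the data). No difference between groups of a family member or of a pair passed its threshold under any of them. The count of miRNAs past the adjusted limma threshold was 0 throughout except with array weights (1, miR-375). Unadjusted counts ran from 1 to 13, with 13 without dsVg pool 3. Without dsVg pools 1 and 5 the differences turned to 0.10 (miR-279), -0.030 (miR-279c), -0.13 (miR-279c minus miR-279), -0.10 (miR-996 minus miR-279) and -0.029 (miR-279c minus miR-996), and the r of miR-279 and miR-279c was -0.57. With 1 pool left out they ran from -0.58 to -0.080 for miR-279, 0.25 to 0.70 for miR-279c, -0.061 to 0.019 for miR-996, 0.33 to 1.28, 0.083 to 0.53 and 0.24 to 0.75 for the pairs in the order above, each smallest in size without dsVg pool 5 (0.0033 for miR-996). With array weights miR-279 was at -0.064 and miR-279c at 0.098.

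The difference of miR-996 turned to 0.095 with plain subtraction, 0.0024 with cyclic loess, 0.033 without normalization, 0.076 within the arrays with over 80 detected miRNAs, 0.081 with GC correction and 0.081 with GC correction and the block. That of miR-279c was -0.037 under the added 75th percentile scaling. The r of miR-279 and miR-279c was 0.34 with median scaling, -0.012 without normalization, -0.56 under the added scaling, -0.24 within dsGFP pools and -0.94 within the arrays with at most 80 detected miRNAs, where the adjusted permutation p was 0.300. That of miR-279 and miR-996 turned to -0.54 (75th percentile), -0.074 (added scaling), -0.26 (none) and -0.64 (GC, adjusted permutation p = 0.0159). That of miR-279c and miR-996 turned to 0.50, 0.69, 0.27 and 0.74 in the same settings and 0.25 within dsGFP pools, and was -0.76 with cyclic loess. Of these, 0.69, 0.74 and -0.76 passed the threshold (adjusted permutation p = 0.0410, 0.00793 and 0.0220). The GC correction itself shifts miR-996 by each array's GC trend, so the -0.64 and 0.74 cannot tell whether the miRNAs moved together. The cause of these changes was not tested.

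Of the 84 miRNAs, 45 were higher and 39 lower in dsVg, against 37 and 47 under 75th percentile scaling, 12 and 72 under the added one, 59 and 25 with median scaling, 67 and 17 without normalization (median 0.15), and 54 and 30 with array weights. Same-numbered pools correlated at -0.27 to 0.53 in their deviations, so the numbers were not treated as pairs. With the replicate block the differences stayed at -0.39, 0.51 and -0.026 (Benjamini-Hochberg adjusted p from limma, 0.753, 0.753 and 0.904).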

Other observations

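The 18 spots of a probe gave the technical spread within an array. The coefficient of variation over the spots of miR-279 was 4.76% to 26.9% across the 12 arrays, the highest in dsGFP pool 4 and the lowest in dsVg pool 1. For miR-279c it was 3.45% to 7.37% and for miR-996 3.85% to 7.91%. The standard error over spots, 0.036 at the median for miR-279 and 0.022 for miR-279c (log2), was smaller than the SD between pools, 0.89 for both in dsVg pools and 0.21 and 0.23 in dsGFP pools.

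miR-279b, the other probe with this seed, was detected on 2 dsVg and 3 dsGFP arrays and did not enter the limma test. Its mean log2 signal was 6.71 ± 0.17 in dsVg pools and 6.64 ± 0.07 in dsGFP pools (SD, n = 6 each), which differ by 0.069 (exact permutation test, two-sided, p = 0.457).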
